A study of Mus musculus with 3 samples.

Results

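The 7 genes described here, Pou5f1, Sox2, Sall4, Lin28a, Utf1, Nr0b1 and Trim28, are core genes of the pluripotent state. They were found by symbol among the 29267 mouse gene identifiers in the count tables, and all 7 were among the 17119 genes that passed the filter on low counts. Single mouse embryonic stem cells, derived from the blastocyst, were profiled on 3 plates, and each plate held cells of 3 types. All cells carried the label Mll1fl/fl; Cre-ER TM on C57BL/6J, that is, loxP-flanked alleles of Mll1 (now Kmt2a, a histone H3 lysine 4 methyltransferase) with a Cre recombinase fused to an oestrogen receptor. The types were Mll1-/- cells (deleted; 1310 wells kept), cells under Mll1 inhibition (inhibited; 1590 wells) and Mll1fl/fl control cells (control; 1513 wells). The labels name no inhibitor, dose, time or deleted exon, and do not say whether the control cells received a vehicle or the agent that activates Cre. No label says whether the plates hold separate cultures or whether the cells stem from more than 1 clone. The spread behind each p-value of the fitted levels is how much the differences between cell types within a plate vary from plate to plate. The fit also includes counting noise and draws each gene's spread toward the trend over all genes tested. The spread from plate to plate may be technical.

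Pluripotent cells hold themselves in a self-renewing state through a small circuit of transcription factors that bind one another's regulatory regions. OCT4, the product of Pou5f1, and SOX2 bind composite sites on DNA together, and SALL4 is a zinc-finger partner of both that also recruits the NuRD deacetylase complex. Around this core act UTF1, a chromatin-bound factor, DAX1 (the product of Nr0b1), an orphan nuclear receptor that binds OCT4, LIN28A, an RNA-binding protein that blocks maturation of let-7 microRNAs, and TRIM28 (KAP1), the corepressor that zinc-finger proteins use to silence retroviral elements.

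Counts of unique molecular identifiers (UMIs, tags that count each captured RNA molecule once) were added up over the wells kept for a given plate and cell type. This gave 9 libraries of 25914860 to 43773924 UMIs, and levels are given as CPM, the gene's count relative to the library's normalised total on the usual per-million scale. Exceptions that use raw totals are listed with the processing of the data. A kept well had at least 1000 detected genes and under 20% mitochondrial UMIs. The wells held a median of 34721 UMIs in deleted, 32890 in inhibited and 39644 in control cells, and their median mitochondrial share on the 3 plates was 3.81 to 4.16%, 3.24 to 3.48% and 3.06 to 3.18% in the same order. Kmt2a stood at 62.1, 49.9 and 39.2 CPM in deleted cells on plates 1 to 3, at 40.6, 43.4 and 46.7 CPM in inhibited cells and at 50.2, 50.2 and 54.7 CPM in control cells. The exons removed and the transcript end counted are unknown here, so these values cannot serve as a check of the genotype. Of the 3260 distinct well barcodes, 1040 occurred on 2 or more plates, where well barcodes are reused, so cells were identified by plate and barcode. The wells carried stem cell markers beside the 7 genes: Zfp42 stood at 107 to 164 CPM, Esrrb at 23.4 to 41.9 CPM and Nanog at 9.94 to 25.4 CPM over the 9 libraries. The 12 trophectoderm markers summed to 1059 to 1735 CPM in deleted, 584 to 908 CPM in inhibited and 816 to 968 CPM in control libraries, most of it from the keratin gene Krt18, and their part in the results below was not tested. Fewer cells expressing a gene and less RNA per cell cannot be told apart in a summed library, so shares of wells and the spread between wells are given after the levels.

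The start regions of 3 of the genes are shown because these genes mark the extremes of spread between cells described below: Nr0b1 was the gene with the most uneven counts from well to well in most libraries, and Pou5f1 and Trim28 the most even. Each run is the 250 bases upstream of a RefSeq start on GRCm38.p6, all on the plus strand, with the letters of the GC box (GGGCGG), the CCAAT box and the TATA box (TATAAA) in capitals wherever they occur on either strand. The windows lie at chr17:35505782-35506031 (Pou5f1, the upstream one of its 2 RefSeq starts), chrX:86191525-86191774 (Nr0b1) and chr7:13023902-13024151 (Trim28).
Pou5f1: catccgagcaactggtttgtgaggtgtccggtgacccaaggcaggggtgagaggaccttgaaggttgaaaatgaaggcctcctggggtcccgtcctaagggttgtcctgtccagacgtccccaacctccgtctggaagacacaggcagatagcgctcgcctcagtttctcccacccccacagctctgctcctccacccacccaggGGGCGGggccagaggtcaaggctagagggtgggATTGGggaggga
Nr0b1: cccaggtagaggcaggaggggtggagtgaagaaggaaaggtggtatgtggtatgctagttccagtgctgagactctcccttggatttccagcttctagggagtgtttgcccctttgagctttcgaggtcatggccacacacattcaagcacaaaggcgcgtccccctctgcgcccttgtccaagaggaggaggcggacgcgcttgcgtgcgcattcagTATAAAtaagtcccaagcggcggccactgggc
Trim28: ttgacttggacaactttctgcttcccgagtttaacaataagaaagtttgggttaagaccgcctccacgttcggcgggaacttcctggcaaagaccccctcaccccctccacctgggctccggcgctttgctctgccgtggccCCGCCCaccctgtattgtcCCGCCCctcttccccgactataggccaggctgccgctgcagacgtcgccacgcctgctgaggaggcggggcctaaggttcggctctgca

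The Nr0b1 window held 1 TATA box and no GC box or CCAAT box. The Pou5f1 window held 1 GC box and 1 CCAAT box, and the Trim28 window held 2 GC boxes. Of the windows not printed, that of Lin28a held none of these boxes and that of Utf1 held 4 GC boxes. The Sox2 window held 2 GC boxes and 1 CCAAT box, and that of the second Pou5f1 start 1 CCAAT box. Among 32851 mouse RefSeq windows of the same length, 12.4% held the TATA box letters on either strand, 32.7% a GC box and 33.8% a CCAAT box. The octamer ATGCAAAT, or ATTTGCAT on the other strand, which OCT4 can bind, was in none of the windows of the 6 genes with an entry in the table and in 1.60% of all windows. The letters ACAAAG, or CTTTGT on the other strand, a core that SOX proteins can bind, occurred 1 time each in the Nr0b1 and Sox2 windows, not capitalised here, and in 16.5% of all windows. These matches describe letters in a window and are not binding sites, and their relation to the spread between cells was not tested.

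Levels of different genes were compared per kilobase of exon, which assumes that counts grow with exon length. Where only an end of each transcript is counted they need not, and the transcript end counted is not given. Without division by length the order differed: Trim28 averaged 269 CPM, Sox2 126, Nr0b1 120, Sall4 112, Pou5f1 54.3, Utf1 37.9 and Lin28a 31.8. Over the 9 libraries Nr0b1 averaged 66.2 CPM per kb (range 44.4 to 102), Trim28 64.6 (58.9 to 72.6) and Sox2 61.4 (49.0 to 71.5), and these ranges overlapped. Utf1 averaged 30.9 CPM per kb (17.9 to 37.3), Pou5f1 24.1 (21.2 to 27.2) and Sall4 20.2 (17.1 to 23.1). Each of these 3 overlapped its neighbour in the order and lay below every value of Nr0b1, Trim28 and Sox2. Lin28a was lowest, at 7.97 CPM per kb (5.15 to 9.81), below every value of the other 6 genes. From library to library Trim28 moved least, 1.23-fold between its lowest and highest CPM, followed by Pou5f1 at 1.28-fold. Nr0b1 moved most, 2.29-fold, and Utf1 2.09-fold.

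**Figure D1:**
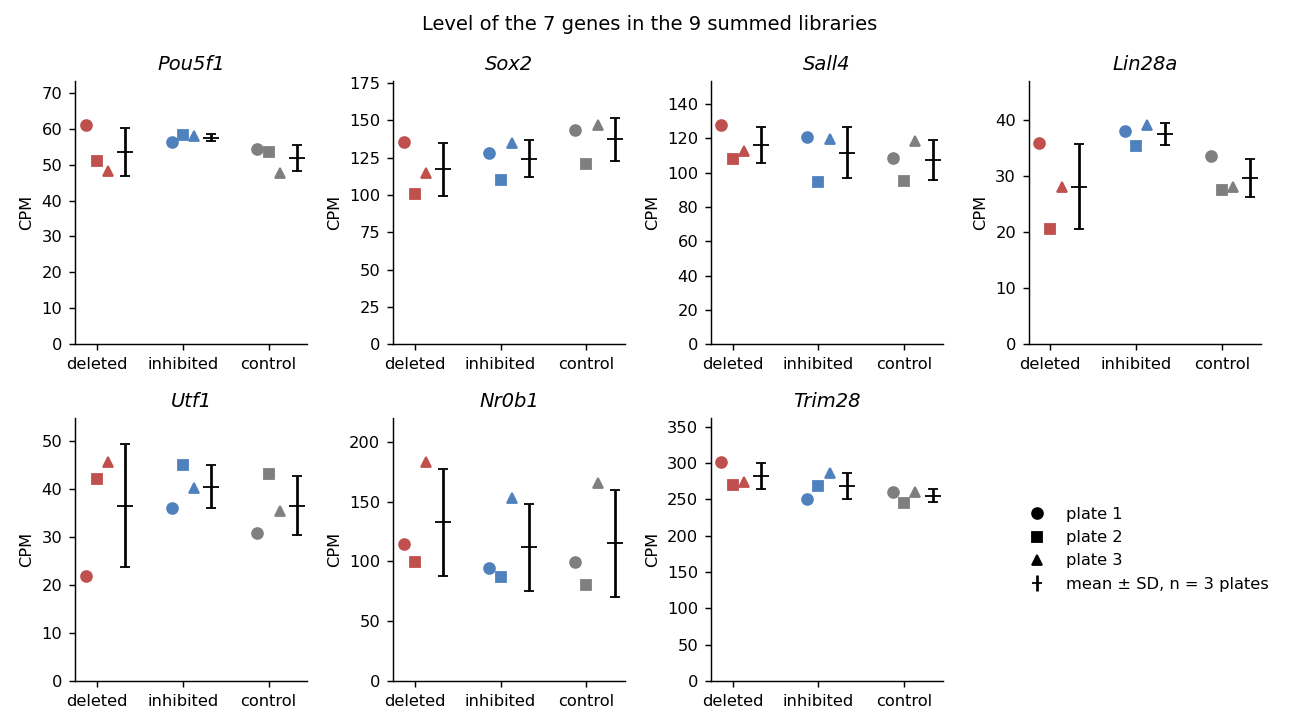
CPM (y axis, from 0, a scale of its own for each gene) of the 7 genes in deleted, inhibited and control cells (x axis). Points are the 9 libraries, with the marker shape giving the plate, and the black mark beside each group is the mean with its SD over 3 plates; Nr0b1 is highest on plate 3 in each cell type, at 184, 153 and 165 CPM in deleted, inhibited and control cells.

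Each gene's level was compared between the cell types in one model over the 9 libraries, with the plate as a block (edgeR's quasi-likelihood F test, Benjamini-Hochberg adjustment over 17119 genes, threshold 0.05). None of the 7 genes passed in any comparison. Of all genes tested, 0.035% passed for deletion against control, 0.00584% for inhibition against control and 0.31% for inhibition against deletion, so few calls of any kind were made. At an unadjusted p under 0.05, Sox2 and Nr0b1 met it for deletion against control, Lin28a for inhibition against control, and Lin28a and Nr0b1 for inhibition against deletion. Of all genes tested, 10.3%, 9% and 13.7% met it in the same comparisons. DESeq2, the other tool run, called none of the 7 in any comparison either. With wells thinned to equal depth before summing, the differences of Sox2, Sall4, Utf1, Nr0b1 and Trim28 for inhibition against control changed sign, to 0.08, -0.01, -0.00, 0.06 and -0.06 on the log2 scale. Log2 differences below are fitted values ± the fit's standard error (SE), followed by the 95% interval, and adjusted p-values are those of edgeR.

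**Figure D2:**
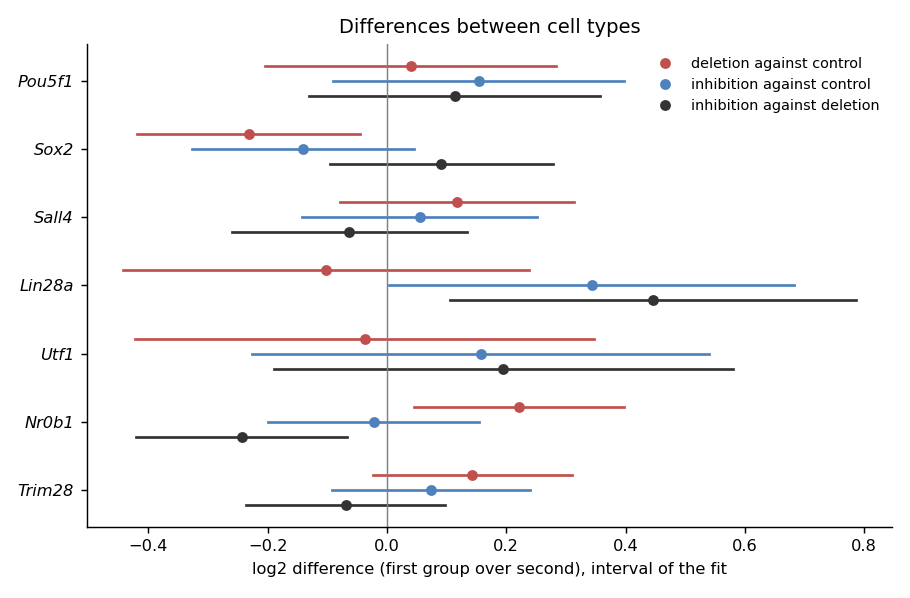
Log2 difference (x axis, first group over second) of the 7 genes (y axis) for deletion against control, inhibition against control and inhibition against deletion. Points are fitted values and bars 95% intervals of the fit, not adjusted for the number of genes; the widest intervals belong to Utf1 and Lin28a, and the intervals of Sox2 and Nr0b1 for deletion against control lie on opposite sides of 0.

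Pou5f1 (ENSMUSG00000024406; GRCm38/mm10 chromosome 17, 35506018 to 35510772, plus strand) encodes OCT4. It had 61.1, 50.9 and 48.4 CPM in deleted cells on plates 1 to 3, 56.4, 58.3 and 57.9 CPM in inhibited cells, and 54.3, 53.6 and 47.8 CPM in control cells. The inhibited values were the closest together and all lay above the control values, while deleted and control values overlapped. Values of 2 of the 7 genes did not overlap between inhibited and control cells, Pou5f1 and Lin28a, against 11.3% of all genes tested. The Pou5f1 difference was 0.15 ± 0.11 (SE; -0.09 to 0.40; adjusted p = 0.750) for inhibition and 0.04 ± 0.11 (-0.20 to 0.28; adjusted p = 0.948) for deletion against control. The intervals leave room for a change of up to 1.32-fold upward with inhibition, and for 0.868-fold to 1.22-fold with deletion. A processed pseudogene of Pou5f1, Gm5712, matches its transcript over 1074 bases at 87.2% identity; how reads that fit both were counted is not given.

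Sox2 (ENSMUSG00000074637; chromosome 3, 34650405 to 34652461, plus strand), the DNA-binding partner of OCT4, lies within the span of the long noncoding gene Sox2ot on the same strand. It had 136, 101 and 115 CPM in deleted cells on plates 1 to 3, 128, 110.3 and 135 CPM in inhibited cells, and 144, 121 and 147 CPM in control cells. On each plate the control value was the highest of the 3, although the groups overlapped across plates. The difference was -0.23 ± 0.08 (-0.42 to -0.05; adjusted p = 0.384) for deletion and -0.14 ± 0.08 (-0.33 to 0.05; adjusted p = 0.674) for inhibition against control. Both comparisons use the same control libraries. Over all genes, 31.7% differed in one direction on all 3 plates for deletion against control and 32.9% for inhibition against control. Thinned wells gave 0.08 ± 0.10 for inhibition against control (adjusted p = 0.885). For deletion against control Sox2 stayed below 0 in every alternative run, at -0.30 to -0.14 (adjusted p from 0.280 to 0.891).

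Sall4 (ENSMUSG00000027547; chromosome 2, 168748332 to 168767943, minus strand) had 128, 108 and 113 CPM in deleted cells on plates 1 to 3, 121, 94.5 and 119 CPM in inhibited cells, and 108, 95.0 and 118 CPM in control cells. The 3 groups overlapped, and plate 2 was the lowest in each cell type. The difference was 0.12 ± 0.09 (-0.08 to 0.31; adjusted p = 0.724) for deletion and 0.05 ± 0.09 (-0.14 to 0.25; adjusted p = 0.921) for inhibition against control. Sall4 shares 526 of its 5536 exonic bases with the antisense gene Gm14261, which held 122 UMIs in all 9 libraries against 35696 for Sall4; whether strand was used in counting is not given.

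Lin28a (ENSMUSG00000050966; chromosome 4, 134003330 to 134018841, minus strand) had 35.9, 20.6 and 28.1 CPM in deleted cells on plates 1 to 3, 38.2, 35.4 and 39.2 CPM in inhibited cells, and 33.7, 27.5 and 28.1 CPM in control cells. Inhibited cells were highest on every plate and above every control value, and they overlapped deleted cells only through the deleted library of plate 1. The difference was 0.34 ± 0.15 (0.00 to 0.68; adjusted p = 0.549) for inhibition against control and 0.45 ± 0.15 (0.11 to 0.79; adjusted p = 0.237) for inhibition against deletion, and -0.10 ± 0.15 (-0.44 to 0.24; adjusted p = 0.891) for deletion against control. A single well supplied 3.54 to 14.6% of a library's Lin28a UMIs. Lin28a was higher in inhibited than in deleted cells on all 3 plates; over all genes, 33.1% differed in one direction on every plate in that comparison. Without the well with the most Lin28a UMIs in each library, inhibited cells had 33.6, 33.7 and 36.2 CPM on plates 1 to 3, deleted cells 33.6, 18.3 and 26.8 CPM, and control cells 32.8, 26.5 and 25.3 CPM. Inhibited and control cells were then still without overlap, but inhibited and deleted cells of plate 1 were level, so the order on that plate rested on single wells.

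Utf1 (ENSMUSG00000047751; chromosome 7, 139943789 to 139945112, plus strand) had 21.9, 42.1 and 45.8 CPM in deleted cells on plates 1 to 3, 36.2, 45.1 and 40.2 CPM in inhibited cells, and 31.0, 43.2 and 35.5 CPM in control cells. The deleted library of plate 1 held the lowest value of the 9 and the deleted library of plate 3 the highest. The difference was -0.04 ± 0.17 (-0.42 to 0.35; adjusted p = 0.971) for deletion and 0.16 ± 0.17 (-0.23 to 0.54; adjusted p = 0.866) for inhibition against control. Without plate 1 the deletion difference turned to 0.17 ± 0.17.

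Nr0b1 (ENSMUSG00000025056; chromosome X, 86191764 to 86195947, plus strand) had 115, 99.4 and 184 CPM in deleted cells on plates 1 to 3, 94.5, 87.1 and 153 CPM in inhibited cells, and 99.4, 80.2 and 165 CPM in control cells. Nr0b1 differed more between plates than between cell types: plate 3 held the highest value in every cell type, with a mean of 167 CPM over the 3 types against 103 on plate 1 and 88.9 on plate 2. Within each plate deleted cells had the most. The difference was 0.22 ± 0.08 (0.05 to 0.40; adjusted p = 0.381) for deletion against control, -0.02 ± 0.08 (-0.20 to 0.15; adjusted p = 0.970) for inhibition against control, and -0.24 ± 0.08 (-0.42 to -0.07; adjusted p = 0.214) for inhibition against deletion. Single wells weighed on these sums: 1 deleted well held 988 Nr0b1 UMIs, 14.0% of its library's, and another held 729, 18.9%. Without the top well of each library Nr0b1 stood at 109, 81.9 and 159.9 CPM in deleted cells and at 96.2, 70.8 and 157 CPM in control cells, so that deleted cells were still the higher on each plate.

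Trim28 (ENSMUSG00000005566; chromosome 7, 12999114 to 13031035, plus strand) was the gene of the 7 with the most UMIs. It had 302, 269 and 274 CPM in deleted cells on plates 1 to 3, 250.5, 269 and 286 CPM in inhibited cells, and 261, 245 and 260.1 CPM in control cells. All deleted values lay above all control values. This was the 1 gene of the 7 whose deleted and control values did not overlap, against 11.0% of all genes tested. The difference was 0.14 ± 0.08 (-0.02 to 0.31; adjusted p = 0.568) for deletion, 0.07 ± 0.08 (-0.09 to 0.24; adjusted p = 0.848) for inhibition against control, and -0.07 ± 0.08 (-0.24 to 0.10; adjusted p = 0.752) for inhibition against deletion. Between inhibited and deleted cells the values of all 7 genes overlapped, against 11.8% of all genes tested that did not. The summed level of the 7 genes was 799, 691 and 807 CPM in deleted cells on plates 1 to 3, 725, 699.7 and 831 CPM in inhibited cells, and 731, 665 and 802 CPM in control cells, and the ranges of the 3 types overlapped.

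At equal depth, each kept well with at least 5869 UMIs was thinned to that number, which kept 3971 wells and left out 442. A UMI of Trim28 was then found in 68.3% of wells, of Sox2 in 40.1%, of Sall4 in 38.4%, of Pou5f1 in 28.3%, of Nr0b1 in 23.3%, of Utf1 in 19.9% and of Lin28a in 15.8%. The median well held a UMI of 2 of the 7 genes in each of the 9 libraries, and 2 wells, both control cells of plate 2, held all 7. Wells without any of the 7 numbered 17 to 24 in deleted, 21 to 37 in inhibited and 13 to 40 in control libraries of 312 to 579 wells. In 15 wells without cells, with 2719 UMIs in all, Trim28 had 2 UMIs and the other 6 genes none, which at this depth allows up to 1103 CPM, above the level of each of the 7 genes in cells. Wells of control RNA, 15 in number with 20306 UMIs, held 6 UMIs of Trim28, 3 of Sall4 and 2 of Sox2, and none of the others. No cell type without these genes was on the plates, so a background share from free RNA could not be measured in cells.

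**Figure D3:**
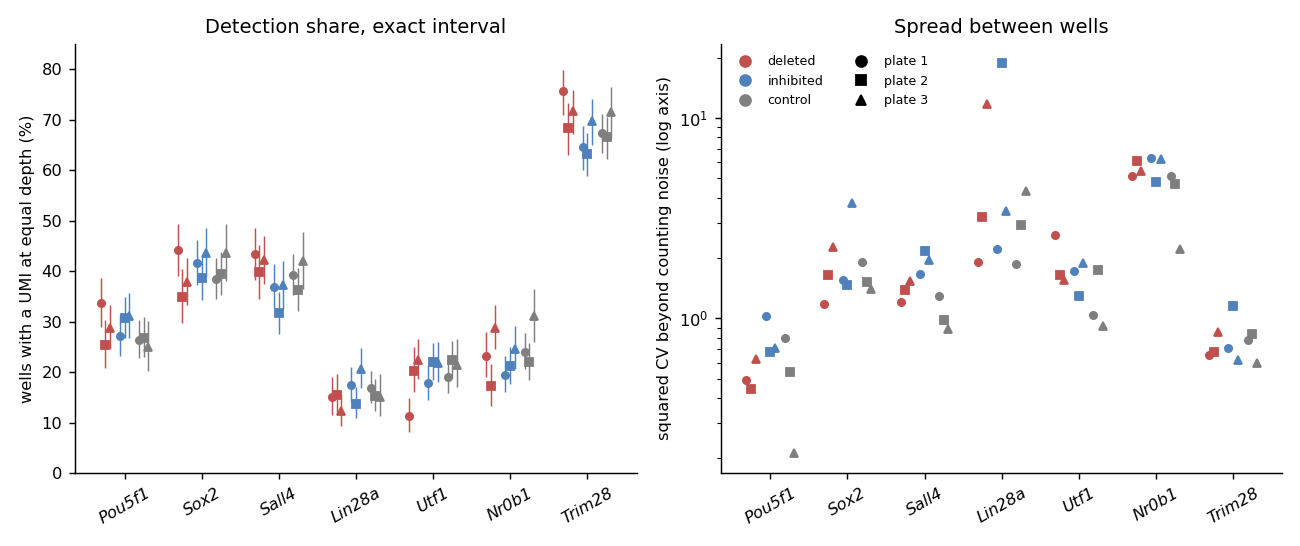
Left, share of wells with a UMI of each gene (y axis, %) after thinning to 5869 UMIs, with 95% exact binomial intervals; right, squared coefficient of variation beyond counting noise (y axis, log scale). Colours give the cell type, shapes the plate, and each point is 1 library; Trim28 was found in 63.1 to 75.7% of wells and Lin28a in 12.2 to 20.6%, and Nr0b1 lies highest on the right in most libraries.

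Shares were compared within plates by an exact two-sided permutation of the signs of the 3 differences, whose smallest possible p is 0.25, so none could pass 0.05. Sall4 was found in 36.9, 31.7 and 37.2% of inhibited wells on plates 1 to 3, in 43.3, 39.8 and 42.2% of deleted wells and in 39.2, 36.2 and 42.0% of control wells. The share was lowest in inhibited cells on every plate, with a difference of -3.87 ± 1.39 percentage points (SD of the 3 differences, n = 3) from control and of -6.48 ± 1.56 points from deleted cells (exact permutation p = 0.25 each). As an average over all possible thinnings, an alternative added after the data had been seen, the differences were -1.78 and -3.52 points. Without thinning, the summed level of Sall4 did not put inhibited cells lowest. The fitted log2 difference for inhibition was 0.05 against control and -0.06 against deleted cells. With wells thinned before summing it was -0.01 ± 0.11 (SE) and -0.24 ± 0.11 in the same order (edgeR, adjusted p = 0.995 and 0.292).

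Trim28 was found in 64.5, 63.1 and 69.7% of inhibited wells, in 75.7, 68.4 and 71.7% of deleted wells and in 67.4, 66.5 and 71.5% of control wells on plates 1 to 3. Inhibited cells differed from control cells by -2.67 ± 0.78 points (exact p = 0.25), and by -2.18 points over all possible thinnings, with the lower share on each plate both times. They were also below deleted cells on each plate in this thinning, but over all thinnings plate 3 had 69.6% in inhibited and 68.7% in deleted cells, and at 20000 UMIs the difference on that plate was 0.95 points. Nr0b1 was found in 23.3, 17.2 and 28.8% of deleted wells, in 19.4, 21.1 and 24.6% of inhibited wells and in 24.0, 22.0 and 31.1% of control wells. The difference between deleted and control cells was -2.61 ± 2.04 points (exact p = 0.25), but its sign on plate 1 depended on the thinning. Averaged over all possible thinnings, the Nr0b1 share was 23.2, 18.0 and 28.6% in deleted cells and 22.8, 21.1 and 31.1% in control cells. It was likewise lower in deleted cells on 2 of 3 plates at 20000 UMIs per well and with stricter filters on wells. Utf1 was found in 11.2% of wells in the deleted library of plate 1 (95% interval 8.21 to 14.9), in which its level was also the lowest, and in 17.8 to 22.4% of wells in the other 8 libraries. Shares of Pou5f1 were 25.3 to 33.7% in deleted, 27.1 to 31.0% in inhibited and 25.0 to 26.8% in control libraries, and those of Sox2 and Lin28a overlapped between all 3 cell types.

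In all, the share differed in one direction on the 3 plates for 3 of the 7 genes for deletion against control, 4 for inhibition against control and 2 for inhibition against deletion. Among 3031 genes with mean thinned counts in the range of the 7, this was so for 38.1%, 43.7% and 36.2% of genes in the same comparisons. The counts of the 7 genes therefore lie near the background. Of these 9 differences, 4 kept their sign on every plate at 20000 UMIs per well and 3 over all possible thinnings. These 3 were Sall4 for inhibition against control and against deletion, and Trim28 for inhibition against control.

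The 7 genes differed in how evenly their UMIs were spread over wells. The squared coefficient of variation (CV) beyond counting noise, the variance minus the mean over the squared mean of the thinned counts, is 0 where wells differ by counting alone. Its median over the 9 libraries was 0.625 for Pou5f1 (range 0.212 to 1.02), 0.712 for Trim28 (0.599 to 1.15), 1.39 for Sall4, 1.56 for Sox2, 1.64 for Utf1, 3.19 for Lin28a and 5.13 for Nr0b1 (2.23 to 6.32). For genes with mean thinned counts in the same range, 2971 to 3176 per library, the median of each library lay between 1.58 and 2.78. In the median library 93.5% of those genes were more uneven than Pou5f1 and 90.5% more than Trim28, but 11.2% more than Nr0b1. Trim28 sets the upper end of the range of means, at 1.74 UMIs, and Lin28a the lower, at 0.231. Genes were not matched on mean within the range, so a rank may also reflect a gene's level.

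At equal depth most wells held no UMI of Nr0b1 and a few held many. With the plates pooled, 76.4% of deleted, 78.4% of inhibited and 75.2% of control wells had no Nr0b1 UMI at 5869 UMIs per well. In the same order 5.06%, 3.89% and 2.84% had 5 or more. A well without a UMI at this depth need not lack the gene: before thinning, a UMI was found in 33.9 to 43.7% of deleted, 34.6 to 41.5% of inhibited and 38.5 to 53.3% of control wells. The 5% of wells with the most Nr0b1, again with the plates pooled, held 52.9% of its UMIs in deleted, 54.1% in inhibited and 47.7% in control cells. Plate 3, where Nr0b1 was highest, held 441 of 1147 deleted, 422 of 1414 inhibited and 312 of 1410 control wells. Pooled values of the cell types therefore also depend on their mix of plates. Pou5f1, by contrast, had 5 or more UMIs in 0.0872% of deleted, 0.212% of inhibited and 0% of control wells, and its highest well held 7.

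**Figure D4:**
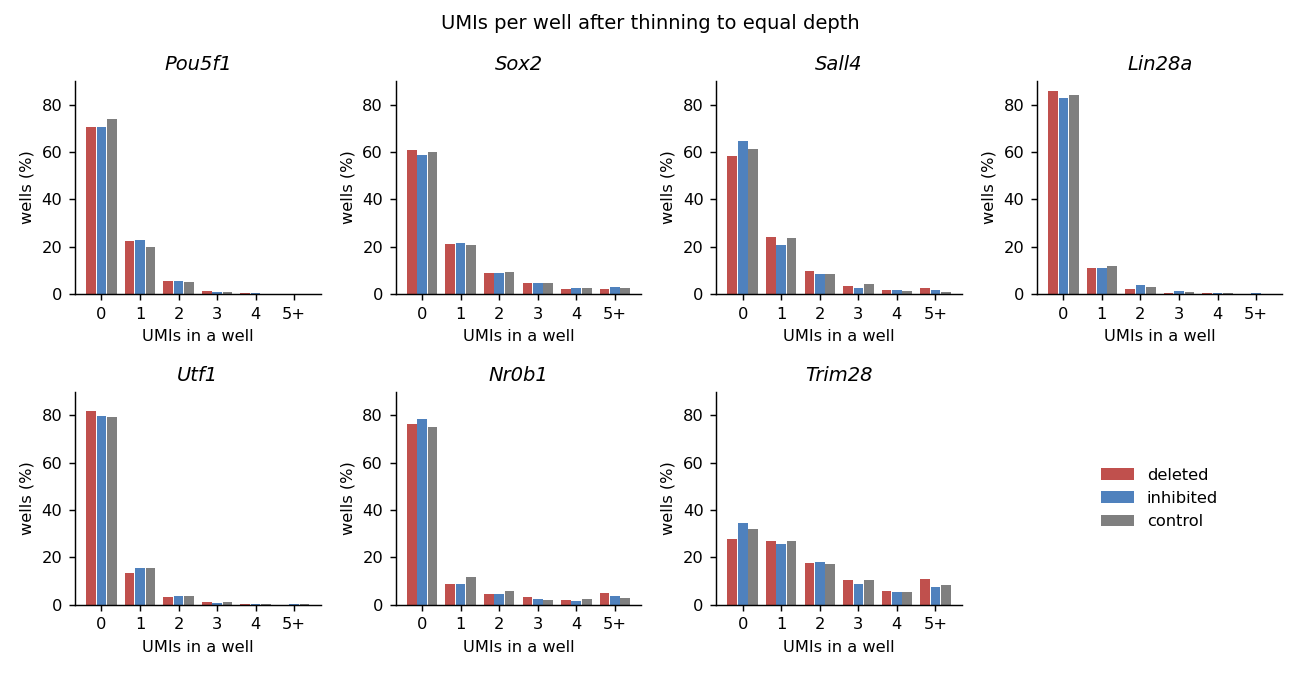
Share of wells (y axis, %) with 0 to 4 and with 5 or more UMIs (x axis) of each gene after thinning to 5869 UMIs, for deleted (1147 wells), inhibited (1414) and control (1410) cells with the plates pooled. Nr0b1 and Trim28 have more wells at 5 or more UMIs than at 4 in each cell type, while Pou5f1 and Utf1 have almost none there. The bar at 5 or more pools all higher counts.

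Between cell types, the spread of Sall4 on plates 1 to 3 was 1.66, 2.18 and 1.95 in inhibited cells, against 1.21, 1.39 and 1.54 in deleted cells and 1.29, 0.982 and 0.886 in control cells. The inhibited value was the highest of the 3 on each plate. The mean difference was 0.87 ± 0.44 (SD, n = 3) against control and 0.55 ± 0.21 against deleted cells (exact p = 0.25 each). Inhibited cells stayed the more uneven on each plate when the well with the most Sall4 UMIs was left out of each library. At 20000 UMIs per well the difference was 0.54 against control, with one sign on each plate, and 0.11 against deleted cells, with plate 3 at -0.19. With stricter filters the types overlapped across plates: inhibited cells of plate 2, at 1.42, lay below deleted cells of plate 3, at 1.55. Nr0b1 had a spread of 5.13, 6.12 and 5.44 in deleted, 6.32, 4.77 and 6.21 in inhibited and 5.11, 4.67 and 2.23 in control cells. Its control value was the lowest on every plate, but on plate 1 it lay 0.02 under the deleted and on plate 2 0.10 under the inhibited value, and without the top well the order of inhibited and control cells turned on plate 2. Pou5f1 was more uneven in inhibited than in control cells on each plate, by 0.29 ± 0.19 (exact p = 0.25), although the difference was -0.14 at 20000 UMIs per well. The spread differed in one direction on all plates for 2 of the 7 genes for deletion against control, 3 for inhibition against control and 2 for inhibition against deletion, where 30.4%, 39.4% and 25.3% of the 3031 genes of like mean did so. Of these 7 differences, the 1 that kept its sign on every plate at 20000 UMIs was that of Sall4 for inhibition against control.

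Single wells made the largest values of spread. Lin28a stood at 18.7 in inhibited cells of plate 2, where 1 well held 23 of its thinned UMIs, and at 3.33 without that well. In deleted cells of plate 3 it stood at 11.7, and at 3.65 without a well of 13 UMIs. Sox2 reached 3.75 in inhibited cells of plate 3 and 1.70 without 1 well of 32 UMIs. That well held 170 Sox2 UMIs among 36741 before thinning, so it was not among the deepest.

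Levels also moved with the depth of the well. The kept wells of each library were split into 3 classes of equal number by total UMIs, with median totals of 5416 to 11995, 23468 to 58507 and 101614 to 228298 UMIs in the shallow, middle and deep classes of the 9 libraries. Pou5f1 averaged 71.8 ± 9.21 CPM in the shallow, 64.3 ± 4.50 CPM in the middle and 50.9 ± 4.37 CPM in the deep classes (SD, n = 9 libraries), and was lower in the deep than in the shallow class in 9 of 9 libraries. Lin28a averaged 48.4 ± 12.3, 40.7 ± 9.46 and 28.8 ± 5.66 CPM in shallow, middle and deep classes, and Trim28 352 ± 45.9, 288 ± 28.3 and 259 ± 20.6 CPM, both also lower in the deep than in the shallow class in 9 of 9. Nr0b1 went the other way, with 91.0 ± 29.8, 100.9 ± 22.1 and 126 ± 44.1 CPM, higher in the deep class in 9 of 9. Sall4 and Sox2 were lower in the deep class in 7 of 9 libraries and Utf1 in 8 of 9. Deep wells supply the most UMIs to a summed library, so a gene's level there is bound to lie near that of the deep class. For each of the 7 genes the mean CPM of the summed libraries lay closer to the mean of the deep class than to that of the others.

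**Figure D5:**
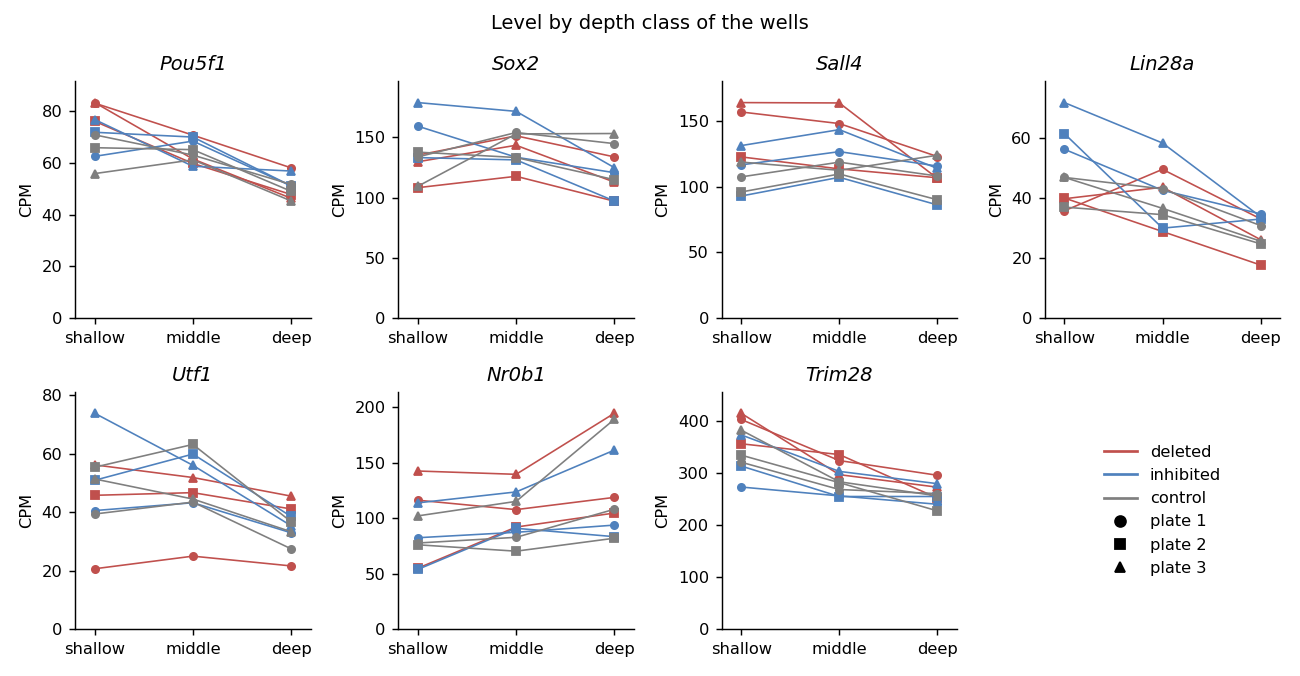
CPM (y axis, from 0, a scale of its own for each gene) in the shallow, middle and deep class of the wells (x axis) of each of the 9 libraries, with colours for the cell type and shapes for the plate. Lines join the classes of 1 library; Pou5f1, Lin28a and Trim28 end lower in the deep than in the shallow class in all 9 libraries, and Nr0b1 ends higher.

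Wells rich in one of the genes were hardly richer in another. The Pearson correlation of log2(thinned count + 1) between wells, taken within each library and averaged over the 9, lay between -0.00081 and 0.0790 over the 21 pairs, with a mean of 0.0304 over 3971 wells. The highest was that of Sox2 with Nr0b1, and 20 of the 21 pairs lay above 0. By the same measure, the median correlation of each gene with 3120 genes lay between -0.0045 and 0.0061. The part of gene level in this difference was not tested. At 20000 UMIs per well, over 2896 wells, the mean over the 21 pairs was 0.0559 and the highest 0.137. Wells of a library share its plate and were thinned to the same total, and in counts this sparse such values are descriptions. Low values here cannot show that wells rich in one of the genes are no richer in another.

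Set against 3120 genes by the same measure, Nr0b1 was most like Mkrn1, a makorin ubiquitin ligase (mean r = 0.218 over 9 libraries), Gm6083 (0.190) and Dppa5a, a marker of pluripotent cells (0.189). Mkrn1 was also first for Sox2 (0.143), ahead of Ncl, which encodes nucleolin (0.125), and Mylpf (0.120). Utf1 was most like Eif5a, a translation factor (0.114), Mkrn1 (0.112) and Wdr18 (0.107). Trim28 was most like the chaperone gene Hsp90ab1 (0.110), Pla2g1b (0.101) and Slc29a1, a nucleoside transporter (0.1003). No gene reached 0.1 with Pou5f1, Sall4 or Lin28a. Mkrn1, Ncl, Eif5a, Dppa5a and Hsp90ab1 are abundant genes, at 1432 to 4955 CPM.

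Among other genes of the circuit, none of 25 genes of the pluripotency network passed the threshold in any comparison. Their median log2 difference was -0.04 for deletion and -0.13 for inhibition against control, and -0.12 for inhibition against deletion, beside medians of 8.9e-05, -0.00069 and -0.0032 over all genes tested. Those with the smallest p for inhibition against control were Dnmt3l, a catalytically inactive partner of the DNA methyltransferases, at 76.9 ± 1.12 CPM in inhibited cells against 109 ± 14.4 CPM in control cells over 3 plates (SD), a log2 difference of -0.49 ± 0.10 (SE; adjusted p = 0.277), and Dppa5a (-0.38 ± 0.09; adjusted p = 0.355). For deletion against control they were L1td1, an RNA-binding protein gene (-0.20 ± 0.05; adjusted p = 0.262), and Tet1, a methylcytosine dioxygenase (-0.21 ± 0.08; adjusted p = 0.426).

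Of 13 known targets of OCT4 and SOX2, also none passed; 10 lay below 0 for deletion and 7 for inhibition against control, with medians of -0.15 and -0.09. Tdgf1, the Nodal co-receptor Cripto, had 249 ± 24.8 CPM in deleted cells, against 305 ± 9.93 CPM in control cells (-0.30 ± 0.07; adjusted p = 0.194). Nanog, a homeobox factor, had 12.5 ± 2.40 CPM in inhibited and 22.4 ± 3.09 CPM in control cells (-0.84 ± 0.21; adjusted p = 0.355). These were named for the smallest p in the list, by edgeR's quasi-likelihood test.

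Of 15 paralogs of the 7 genes, 13 had enough counts to be tested and none passed. The median difference was -0.00 for deletion and 0.18 for inhibition against control. Among OCT4's relatives Pou2f1 had 36.6 ± 4.67 CPM in inhibited and 27.6 ± 2.28 CPM in control cells (0.40 ± 0.13; adjusted p = 0.412). Sall2 averaged 4.48 CPM in deleted cells, against 1.30 CPM in control cells (log2 difference 1.74 ± 0.52; adjusted p = 0.298). Lin28b, the second LIN28 gene, stood at 3.95 to 10.8 CPM over the 9 libraries, and Trim24, a relative of Trim28, at 67.0 to 80.9 CPM.

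Partners were measured too. Of 14 genes of the NuRD complex, to which SALL4 binds, none passed in any comparison, with medians of 0.04 for deletion, 0.13 for inhibition against control and 0.02 for inhibition against deletion. Rbbp7, a histone-binding subunit, had 453 ± 97.7 CPM in deleted and 446 ± 42.7 CPM in inhibited cells, and 364 ± 26.5 CPM in control cells (0.30 ± 0.08 and 0.29 ± 0.08; adjusted p = 0.237 and 0.363). None of 19 genes that act with TRIM28 in silencing passed (medians -0.08, -0.00 and 0.10 in the same order of comparisons), nor did any of 19 genes of the LIN28 and let-7 axis (-0.08, 0.08 and 0.08). In the let-7 axis Hmga1, an architectural chromatin protein gene, had 62.2 ± 14.2 CPM in inhibited and 45.1 ± 15.0 CPM in deleted cells (0.49 ± 0.11; adjusted p = 0.1003).

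Of the markers of other cell types, the trophectoderm list alone held genes past the threshold, 3 of 11 tested, all lower in inhibited than in deleted cells. The median of the list was -0.58 for that comparison, 0.58 for deletion against control, where all 11 tested lay above 0, and -0.01 for inhibition against control. Krt18 had 569 ± 149 CPM in inhibited and 1027 ± 287 CPM in deleted cells (-0.85 ± 0.11; adjusted p = 0.0185), and Krt19 (-1.12 ± 0.16; adjusted p = 0.0273) and Krt8 (-0.89 ± 0.14; adjusted p = 0.0318), the other keratin genes, were lower as well. Processed pseudogenes of keratin genes are known, and how reads that fit both were counted is not given. Against the 592 ± 61.1 CPM of control cells, Krt18 differed by 0.75 ± 0.11 in deleted cells (adjusted p = 0.0563), and Krt8 by 0.64 ± 0.13 (adjusted p = 0.179). The trophectoderm regulators Cdx2 and Eomes were each found in under 3% of wells at equal depth, Cdx2 in 2.44% of deleted, 2.05% of inhibited and 1.56% of control wells. Primitive endoderm markers summed to 435 to 572 CPM in deleted, 361 to 400.3 CPM in inhibited and 379 to 472 CPM in control libraries, most of it from Sparc. Neural markers summed to 83.6 to 87.4, 91.7 to 96.2 and 76.8 to 104 CPM, mesoderm markers to 1.11 to 2.83, 1.44 to 2.21 and 0.343 to 3.43 CPM, and fibroblast and feeder markers to 15.9 to 26.5, 12.3 to 15.9 and 6.64 to 14.6 CPM, each in deleted, inhibited and control libraries in that order. None of the 10, 6, 3 and 5 tested genes of these 4 lists passed in any comparison.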

How the data were processed

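The authors' deposited tables hold raw UMI counts per gene and well, not normalised; the submitters' processing notes name the build mm10, Subread 1.4.6-p1, featureCounts and STAR 2.5.2b. The handling of reads that fit several genes, the strand setting and the transcript end are not stated there. In all 4640 wells the row sums equalled the deposited report, which also gives each well's type. Of 4610 wells of the 3 types, 4413 were kept; wells of control RNA and wells without cells served as background only. Spike-in and reporter rows (0.67% of UMIs in kept wells) stayed out of library sizes. GENCODE M21 names 28641 of the 29267 identifiers; exonic lengths and coordinates come from it, and start regions from RefSeq. No doublet caller was run.

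Sums per plate and type were fitted with edgeR 4.0.16 (R 4.3.3; TMM, filterByExpr, quasi-likelihood F test, plate as block, Benjamini-Hochberg adjustment, threshold 0.05), a step tested on simulated data. The labels place all types on each plate; deviations from the type means correlated at 0.0782 to 0.141 within plates (9 pairs) and at -0.101 to 0.00858 across plates (18 pairs). CPM use TMM-normalised library sizes, with exceptions that use raw totals. These are the depth classes, the marker sums, the ranges of Lin28b and Trim24, the genes most like a member and the wells without cells. DESeq2 1.42.0, other normalisation, filters, well sets and left-out plates were alternatives. Thinning to 5869 UMIs, the 10th percentile of well totals, drew without replacement. Binomial intervals are exact (Clopper-Pearson, 95%); a count of 0 allows up to 3 counts; both cover counting error only.

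All 7 genes were named in each comparison. From each list, genes past the threshold were to be named and otherwise up to 2 with the smallest p, of which a selection is printed; genes most like a member were named at a mean correlation of at least 0.1. The 7 genes and the lists were chosen with earlier results of these data known.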

Additional observations from a re-analysis of the deposited data

How the results depend on the processing

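In all 10 alternative fits per comparison 0 of the 7 genes passed. Over all genes the calls were 6 for deletion and 1 for inhibition against control and 53 for inhibition against deletion. Without the replicate block the counts were 0, 0 and 3; with DESeq2 450, 340 and 826; with no filter on low counts 179, 108 and 383; with thinned wells 64, 91 and 187; and without the deepest 5% of wells 31 in the third comparison. Leaving out a plate gave 1 to 5, 0 and 0 to 73 calls. At an unadjusted p under 0.05 edgeR gave 1768, 1540 and 2338 genes, and 1035, 851 and 1517 without the block.

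Of the members' fitted differences, 193 of 210 kept their sign; none of the others had passed, and the cause was not tested. For deletion against control Lin28a turned to 0.043 without the deepest 5% of wells, and Utf1 to 0.0031 without the block and to 0.087 without those wells. Without single plates the values ran from -0.023 to 0.10 for Pou5f1, -0.20 to 0.047 for Lin28a and -0.25 to 0.17 for Utf1. For inhibition against control thinned wells gave 0.079 for Sox2, -0.0064 for Sall4, -0.0021 for Utf1, 0.061 for Nr0b1 and -0.061 for Trim28, and the fit without the deepest wells 0.21 for Nr0b1. Without single plates Sall4 ran from -0.0013 to 0.087 and Nr0b1 from -0.089 to 0.023. For inhibition against deletion, also without single plates, Sall4 ran from -0.13 to 0.0018, Utf1 from -0.059 to 0.41 and Trim28 from -0.13 to 0.018. Thinned wells kept the sign in that comparison but gave larger differences for Sall4 and Trim28. Sall4 stood at -0.241 against -0.063 in the main fit, and Trim28 at -0.235 against -0.069.

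Of 21 differences in detection share (7 genes in 3 comparisons), 9 had one sign on all plates. This was 6 at 20000 UMIs per well, 7 with stricter well filters and 8 over all thinnings, of which 4, 7 and 3 were among the 9, and 12 to 15 when only 2 plates had to match. Of 21 differences in spread, 7 had one sign on all plates, 6 at 20000 UMIs and 4 with stricter filters (at least 2000 genes, under 10% mitochondrial UMIs), of which 1 and 4 were among the 7, and 10 to 14 over 2 plates. The mean correlation between members moved to 0.0559 at 20000 UMIs. Depth limits the per-well values: at 5869 UMIs a well holds a mean of 0.231 (Lin28a) to 1.74 (Trim28) UMIs of a member.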
